A study of Calluna vulgaris with 2 samples.

Results

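The 5 contigs described here are annotated as enzymes of flavonoid and anthocyanin synthesis. They are a pair of flavonol synthases (contig01426 and contig01427), a flavonoid 3'-hydroxylase (contig05857), a UDP-glucose:flavonoid 3-O-glucosyltransferase (contig03176) and an anthocyanidin 3-O-glucosyltransferase 5-like protein (contig10418). They belong to 12058 contigs with deposited read counts, from young flowers of common heather, *Calluna vulgaris*. They were selected by annotation from the study's list of contigs with different read numbers in bud bloomer and wild type flowers. The difference between the libraries therefore chose them, and their ratios are given as a description with no test. Chalcone synthase (contig03801) is on the same list and not among the 5.

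The names rest on contig numbers. That list also prints reads beside each annotation, and these stand under the same contig number in the deposited table for 2 of 195 contigs and for 0 of the 5 described here, although all 195 pairs of reads occur somewhere in the table. Names were therefore joined by number, and the printed reads were left aside. For 9 contigs that a second list gives with reads, the reads fitted the same number in all 9, and all 9 numbers are on the first list. Since only 2 printed pairs stood under their own number, the 2 lists give different reads for most of these 9. Both lists name contig07420 as the petal and stamen gene *PISTILLATA*, and whether their other names match was not computed. For the 5 contigs the link of name and number was not tested. Joining by the printed reads instead moves 3 of them to the other side of an even share. It does the same for the flavonol synthases summed and for the 5 contigs summed.

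Flavonoids are phenolic compounds that colour flowers and shield tissue from ultraviolet light. Chalcone synthase makes the first compound of the pathway, and flavonoid 3'-hydroxylase, a cytochrome P450 enzyme, adds a hydroxyl group to the B ring, which leads to quercetin and cyanidin compounds. Dihydroflavonols are then a branch point, where flavonol synthase makes flavonols and other enzymes lead on to anthocyanidins. Glucosyltransferases attach glucose to the hydroxyl group at position 3, which stabilises anthocyanins and is also the usual form of flavonols in plants.

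The bud library came from the cultivar ‘Maria’, a diplocalyx bud bloomer whose flowers stay closed, lack stamens and have sepals in place of petals. The wt library came from F1, an offspring of ‘Maria’ and ‘Boskoop’ with wild type flowers. Plants of both genotypes stood in the greenhouse over winter and in the field when there was no frost. Whole young flowers were taken, with bracts, sepals, petals and carpels, and stamens in wt only. Each flower type is 1 genotype and 1 library, so that flower type, genotype and library cannot be told apart and no spread between plants was measured. Organ make-up also differed, and fewer cells of a type cannot be told apart from less RNA per cell.

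The counts summed to 193454 bud reads and 157245 wt reads, with a median of 7 and 6 reads per contig. Read shares are given as reads per 10000 reads of a library, each with an exact 95% interval that covers counting error only. Where a library had 0 reads, 3 reads were used as a floor, which is 0.155 per 10000 in bud and 0.191 per 10000 in wt. Library 1 was taken as bud, the order that the 9 contigs of the second list fitted. The list of annotations heads it as wt, and in that order every direction given here is reversed. As floral markers, the *PISTILLATA* contig07420 (petal and stamen identity, one of the 9) had 0 bud reads and 20 wt reads, and the *APETALA3* contig09453 had 15 and 21. The study's text gives *PISTILLATA* the same 20 reads for wt and 0 for bud, which is the order taken here. Its quantitative PCR also found reduced *PISTILLATA* expression in bud bloomers. Only wt flowers had stamens, but contig01586, named as a C13-like pollen protein, had 67 bud reads and 0 wt reads, and contig03435, named as the tapetum protein TAP1, had 381 and 140. Whether this touches the library order or the annotations was not tested.

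Flavonoid contigs differed in opposite directions. The 3-O-glucosyltransferase, the 5-like glucosyltransferase and one flavonol synthase had higher read shares in bud, whereas flavonoid 3'-hydroxylase and the other flavonol synthase had lower ones. All 5 had at least 20 reads in both libraries together and differed at least 2-fold, 3 higher and 2 lower in bud. Among the 3947 contigs with at least 20 reads, 19.8% were at least 2-fold higher and 14.0% at least 2-fold lower in bud. With the study's reads in contigs of the separate assemblies as library totals, these were 12.5% and 20.6%. The median log2 ratio was 1.78 for the 5 contigs and 0.16 for the 3947 contigs. Because the difference chose the 5, nothing is read from these numbers.

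**Figure D1:**
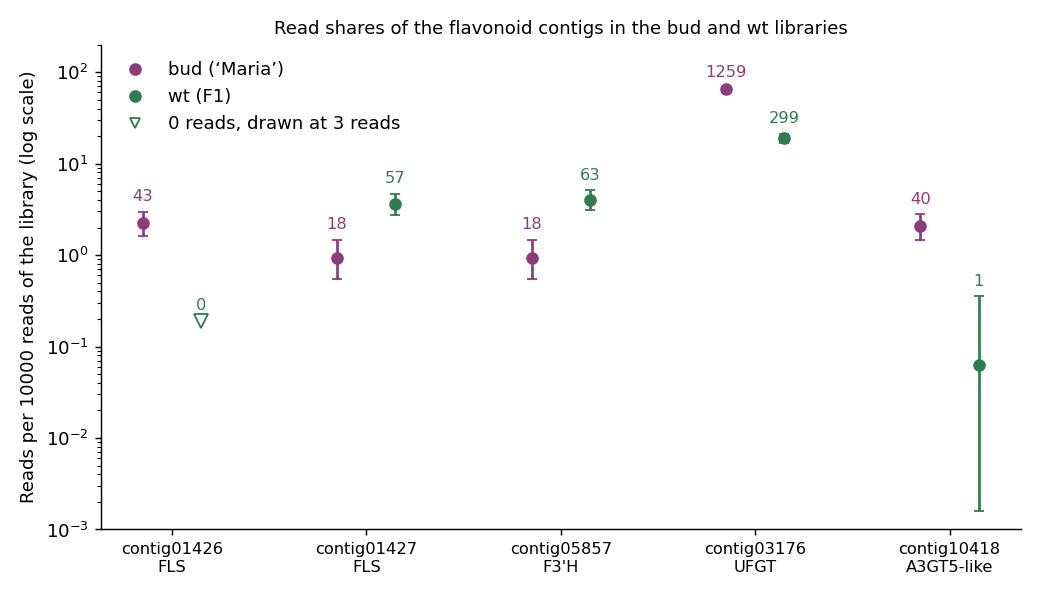
Read share of each flavonoid contig in the bud and wt libraries, in reads per 10000 on a log scale. Points are shares, bars are exact 95% counting intervals, numbers are reads, and the open triangle is a count of 0 drawn at 3 reads. The intervals of bud and wt do not overlap for the 4 contigs with reads in both libraries. The study chose these contigs for this same difference, and the share of all contigs with separate intervals was not computed. Nothing is therefore read from it. FLS is flavonol synthase, F3'H flavonoid 3'-hydroxylase, UFGT the flavonoid 3-O-glucosyltransferase and A3GT5-like the anthocyanidin 3-O-glucosyltransferase 5-like protein.

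Flavonoid 3'-hydroxylase (contig05857) had 18 bud reads and 63 wt reads. This is 0.93 per 10000 (95% interval 0.55 to 1.47) in bud and 4.01 per 10000 (3.08 to 5.13) in wt. The share was 4.31-fold lower in bud (2.52 to 7.73). Its read number was above that of 80.8% of all contigs in bud and of 97.3% in wt.

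The flavonol synthases went in opposite directions. Contig01426 had 43 bud reads, or 2.22 per 10000 (1.61 to 2.99), and 0 wt reads. Against the floor of 3 reads this is at least 11.7-fold higher in bud, a bound that leaves out the counting error of the 43 reads, and the exact interval of the ratio began at 9.07. Contig01427 had 18 reads in bud, or 0.93 per 10000, and 57 in wt, or 3.62 per 10000 (2.75 to 4.70), which was 3.90-fold lower in bud (2.26 to 7.03).

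The 2 contigs carry consecutive numbers and the same annotation. Together they had 61 reads in bud and 57 in wt, or 3.15 per 10000 (2.41 to 4.05) in bud and 3.62 (2.75 to 4.70) in wt. The ratio of the sum was 0.87 with a counting interval of 0.60 to 1.27, which includes both a lower and a higher share in bud. It was 0.70 with the study's reads in contigs as totals, and 1.66 with names joined by the printed reads, which turned the direction. Contig01426 took 70.5% of the pair's reads in bud (57.4 to 81.5%) and 0 of 57 in wt, with an exact upper limit of 6.27%. The sequences of the pair were not analysed here.

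**Figure D2:**
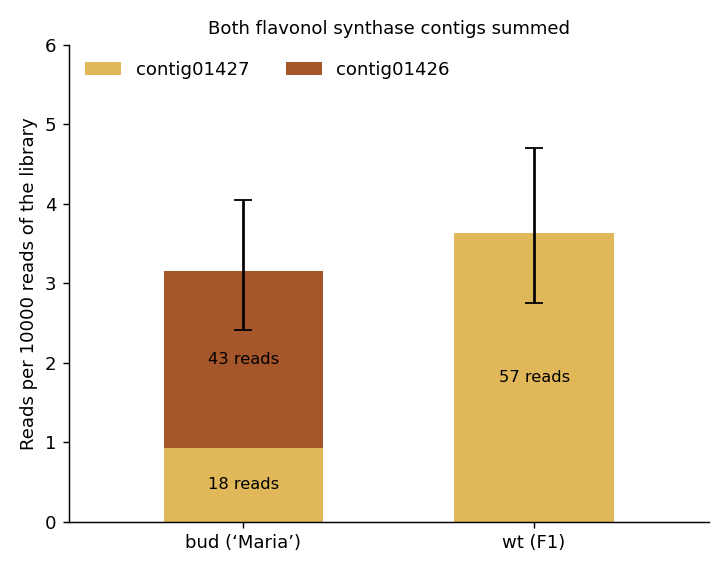
Reads per 10000 of both flavonol synthase contigs, stacked, in the bud library (left) and the wt library (right). Bars in black are exact 95% counting intervals of the sum, and the numbers are reads. The intervals of the sums overlap, around 3.15 in bud and 3.62 in wt, while contig01426 has reads in bud only.

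Opposite pairs also occurred elsewhere in the table. Of the 2048 pairs of consecutive contigs in which each had at least 20 reads, 112 (5.47%) had one contig at least 2-fold higher and the other at least 2-fold lower in bud. In 150 pairs both contigs were at least 2-fold apart in the same direction. The flavonol synthase pair is one of the 112. When the exact 95% interval had to lie wholly past 2-fold, 21 pairs were opposite.

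The UDP-glucose:flavonoid 3-O-glucosyltransferase (contig03176) was by read number the leading contig of the bud library. It had 1259 reads in bud, ahead of 1240 for the next contig, and 299 reads in wt, where it stood at rank 31. With the name joined by the printed reads, the enzyme stood at rank 229 in bud and 906 in wt, with a ratio of 3.11, so that the leading place belongs to the contig number and not surely to the enzyme. These are 65.1 per 10000 (61.5 to 68.8) in bud and 19.0 (16.9 to 21.3) in wt. The ratio of 3.42 (3.02 to 3.90) was the smallest on the log2 scale among the 5 contigs, but had the narrowest interval. Contig lengths were not used here, so that ranks and sums compare read numbers and not transcript levels.

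The anthocyanidin 3-O-glucosyltransferase 5-like protein (contig10418), named after enzymes of the same reaction type, had 40 bud reads and 1 wt read. The shares were 2.07 per 10000 (1.48 to 2.82) in bud and 0.064 (0.0016 to 0.35) in wt. The ratio of 32.5 has a counting interval of 5.51 to 1316, because it rests on 1 wt read. Both glucosyltransferases were higher in bud, and contig03176 held nearly all of their reads, with 1259 of 1299 in bud and 299 of 300 in wt.

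**Figure D3:**
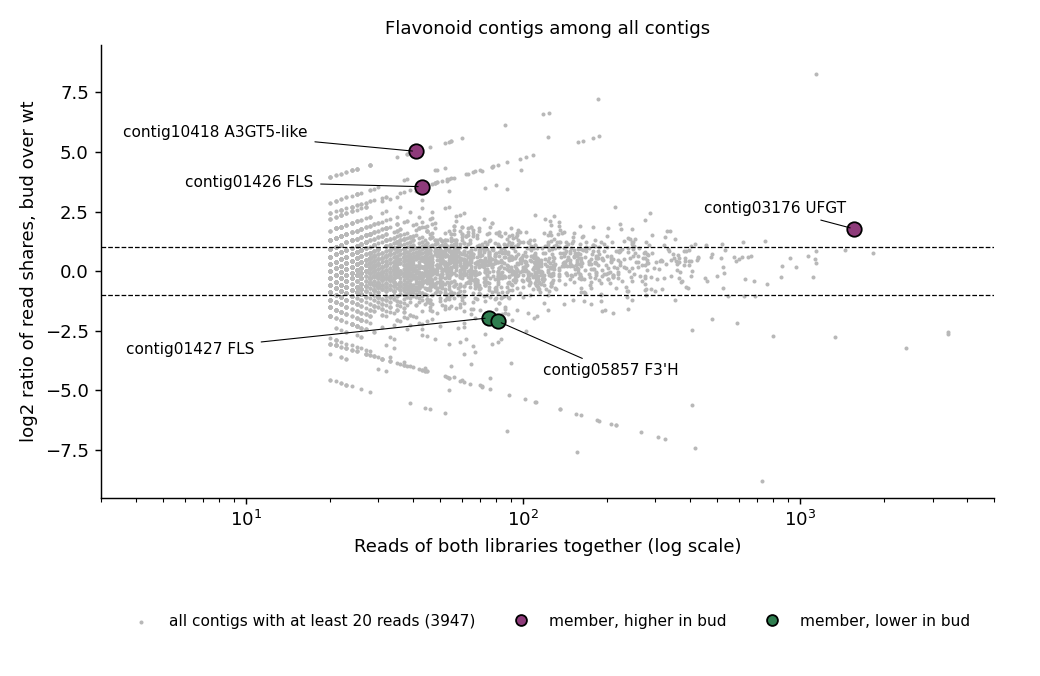
Log2 ratio of read shares, bud over wt, against the reads of both libraries together (log scale) for the 3947 contigs with at least 20 reads. Large points are the flavonoid contigs, dashed lines mark 2-fold, and a count of 0 is set to 3 reads. Contig03176 lies far to the right at 1.78, while the other members have between 41 and 81 reads.

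Summed reads of the 5 contigs followed contig03176. They were 1378 bud reads, or 71.2 per 10000 (67.5 to 75.1), and 420 wt reads, or 26.7 per 10000 (24.2 to 29.4). The ratio was 2.67 (2.39 to 2.98). Without contig03176 the other 4 contigs had 119 reads in bud and 121 in wt, with a ratio of 0.80 (0.62 to 1.04). This ratio lay below an even share, but its counting interval includes one. Contig03176 made up 91.4% of the summed reads in bud (89.8 to 92.8%) and 71.2% in wt (66.6 to 75.5%). With names joined by the printed reads, the glucosyltransferase made up 17.5% of the sum in bud and 4.76% in wt. The ratio of the sum of all 5 was then 0.85, also below an even share. Flavonoid 3'-hydroxylase made up 1.31% in bud (0.78 to 2.06%) and 15.0% in wt (11.7 to 18.8%). Flavonoid 3'-hydroxylase and both flavonol synthases had 79 bud reads and 120 wt reads together, with a ratio of 0.54 (0.40 to 0.72). This sum pools opposite directions, since contig01426 was higher in bud and contig01427 and contig05857 were lower, so that it shows no shared fall. It was not computed with names joined by the printed reads.

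Another 10 contigs of the same list have names of proteins that can act near this pathway or resemble its enzymes. Of these, 5 were at least 2-fold higher in bud, 4 at least 2-fold lower and 1 neither, against the 19.8% and 14.0% given above for all contigs. Their median log2 ratio was 1.23, with counts of 0 at the floor. Like the 5 contigs they were chosen by the study for their difference in these libraries, and their names rest on contig numbers in the same way. Folds against 0 reads are given at the floor, without the error of the reads they are set against, and with the start of the exact interval.

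Chalcone synthase (contig03801), the entry enzyme, had 87 bud reads, or 4.50 per 10000 (3.60 to 5.55), and 150 wt reads, or 9.54 (8.07 to 11.2). It was 2.12-fold lower in bud (1.62 to 2.80). With it added, the sum of the flavonoid contigs was 1465 bud reads and 570 wt reads, with a ratio of 2.09 (1.90 to 2.31). Flavonoid 3'-hydroxylase was also lower in bud. Both contigs were chosen by the study for their difference, and their names rest on contig numbers. A common trend of the early pathway was not tested.

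Of the 3 other UDP-glycosyltransferases, 1 was higher and 2 were lower in bud. A UGT73C5-like isoform X1 (contig07583) had 64 bud reads and 13 wt reads, with a ratio of 4.0 (2.18 to 7.92). The other UGT73C5-like contig (contig05488), whose number is not a neighbouring one, had 0 bud reads and 29 wt reads and was at least 11.9-fold lower in bud at the floor, with an exact interval from 9.07. A UGT79B3-like contig (contig07341) had 0 bud reads and 39 wt reads and was at least 16.0-fold lower at the floor, with an exact interval from 12.4. The UGT73C family includes enzymes that act on hormones and flavonols in *Arabidopsis*, and the UGT79B family one that adds a further sugar to anthocyanins there.

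Both glutathione S-transferases were higher in bud. The phi class enzyme (contig04519) had 120 bud reads and 32 wt reads, with a ratio of 3.05 (2.05 to 4.65), and the tau class enzyme (contig03326) 68 and 5, with a ratio of 11.1 (4.51 to 35.1). In *Arabidopsis* and petunia, phi class enzymes help to bring anthocyanins into the vacuole, as a tau class enzyme does in maize. Whether these contigs have that role is not known from the annotation.

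The remaining 4 contigs carry names of enzymes or families with members that act on phenolic compounds. A phenolic glucoside malonyltransferase 2-like contig (contig03702), of a type that adds malonyl groups to glucosides in *Arabidopsis*, had 50 bud reads and 3 wt reads, with a ratio of 13.5 (4.38 to 67.9). An HXXXD-type acyltransferase-like contig (contig08677), from a large family with enzymes that acylate anthocyanins, had 27 and 0 reads, at least 7.32-fold higher in bud at the floor, with an exact interval from 5.55. A caffeic acid 3-O-methyltransferase 1 (contig00526), which methylates lignin precursors, had 267 bud reads and 121 wt reads, and its ratio of 1.79 (1.44 to 2.24) was under 2-fold. A dirigent-like contig (contig02313), of a family that guides the coupling of phenolic radicals, had 1 bud read and 21 wt reads, 25.8-fold lower with a counting interval of 4.16 to 1068.

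**Figure D4:**
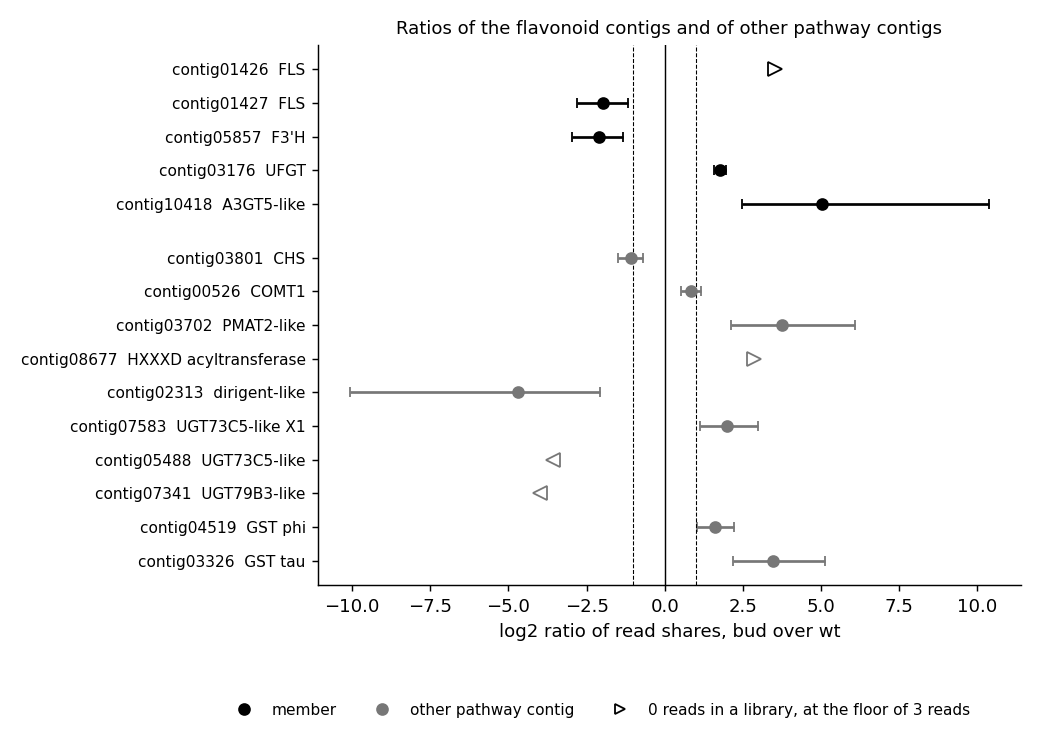
Log2 ratio of read shares, bud over wt, for the flavonoid contigs (black) and the other pathway contigs (grey). Bars are exact 95% counting intervals, open triangles are contigs with 0 reads in a library at the floor of 3 reads, and dashed lines mark 2-fold. Of the 15 contigs plotted, 8 lie at or beyond 2-fold higher in bud, 6 at or beyond 2-fold lower, and contig00526 between the dashed lines. Over all 3947 contigs with at least 20 reads, 19.8% were at least 2-fold higher and 14.0% at least 2-fold lower. The study chose all 15 for their difference between these libraries, so that nothing is read from these counts.

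The contigs numbered next to the members were also read, because consecutive numbers of the flavonol synthases shared an annotation. Within 2 numbers of a member lay 16 other contigs, none of them with an annotation here. Of the 7 with at least 20 reads, 3 were at least 2-fold higher and 1 at least 2-fold lower in bud. Over all 3947 contigs with at least 20 reads these shares were 19.8% and 14.0%. Beside the 3-O-glucosyltransferase, contig03175 had 36 bud reads and 9 wt reads, with a ratio of 3.25 (1.54 to 7.68), and contig03174 had 13 and 21, with a ratio of 0.50 (0.23 to 1.05). Beside flavonoid 3'-hydroxylase, contig05858 had 5 and 21 reads, 5.17-fold lower in bud (1.90 to 17.5), whereas contig05855 had 16 and 6, with a ratio of 2.17 (0.81 to 6.76), and contig05856 had 16 and 11, with a ratio of 1.18 (0.52 to 2.82). Beside the flavonol synthases, contig01429 had 16 and 5 reads, with a ratio of 2.60 (0.91 to 9.08), and contig01425 had 37 and 32, with a ratio of 0.94 (0.57 to 1.56). Neighbours thus lay on either side of an even share, and among these 7 the intervals of contig03175 and contig05858 left it out. Beside the 5-like glucosyltransferase no contig had 20 reads. Contig10416 had 2 and 17 reads, 10.5-fold lower in bud (2.48 to 93.3), while contig10418 itself was higher. Its other neighbours, contig10417, contig10419 and contig10420, had at most 8 reads each in both libraries together.

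Those reference genes of the study's PCR work that have a contig number gave few reads. A ribosomal RNA, also a reference there, was not counted here. Contig02315 (disease resistance protein) had 10 bud reads and 2 wt reads, contig05402 (TATA binding protein) 4 and 8, contig04235 (TSa) 17 and 8, and contig03212 (actin) 44 and 30. Together they had 75 bud reads and 48 wt reads, and a ratio of read shares of 1.27 (0.87 to 1.86). Scaled to these 4 contigs, the ratio of contig03176 was 2.69, that of the flavonol synthase pair 0.68 and that of flavonoid 3'-hydroxylase 0.18.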

How the data were processed

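cDNA of young flowers, primed with oligo(dT) and amplified by PCR, was sequenced as 3’ fragments by pyrosequencing, with 1 library for bud and 1 for wt. Unwanted sequences (organelle, rRNA, endophyte) were taken out with SeqClean, and all reads were assembled with Newbler. The counts deposited by the authors are unnormalised numbers of reads that mapped to each contig of that joint assembly. The deposited table also holds normalised reads and the p-values of the authors' comparison, which were not used. After removal of 3 repeated rows, 12058 contigs were left.

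Shares were computed from the sums of the counts, and ratios with exact 95% binomial intervals. The interval method was checked only on simulated independent reads, which does not show that it fits amplified reads. PCR copies are not independent molecules, so that intervals cover counting error only, and folds at the floor leave out that of the other library. Contigs with at least 20 reads and at least 2-fold apart served as background. No test was made, because the members were selected on this comparison and there is 1 library per group. Members and lists were chosen with earlier results of these data known. Named are the members, the listed pathway, reference and floral contigs, and contigs within 2 numbers of a member that had reads to compare. Annotations were joined by contig number from the study's list, a link that was not checked for these contigs. A join by the reads printed there was added as an alternative after seeing the data. Contig sequences were not analysed here. Alternatives were other library totals, including those of edgeR 4.0.16 and DESeq2 1.42.0, other minimums and folds, and the opposite library order. Python 3.11.15, numpy 2.4.6, pandas 2.3.3, scipy 1.17.1, matplotlib 3.10.9 and R 4.3.3 were used.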

Additional observations from a re-analysis of the deposited data

How the results depend on the processing

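Under 6 other library totals, the direction of each of the 5 contigs and of the summed flavonol synthases stayed as given. These totals moved all log2 ratios by -0.02 to -0.34, and with reads in contigs of the separate assemblies the median of the 3947 contigs was at -0.16 in place of 0.16. With these reads in contigs and with the 4 reference genes as totals, the log2 ratio of contig03176 was 1.46 and 1.43 and that of the 5 contigs summed 1.10 and 1.07. The sum was at 1.06 with chalcone synthase. Without contig03176 it was at -0.32, below an even share, though the counting interval of that ratio includes one. With library 1 taken as wt, the log2 ratios were reversed to -3.54 for contig01426, 1.96 for contig01427, -1.78 for contig03176, 2.11 for contig05857 and -5.02 for contig10418. With names joined by the printed reads, an alternative chosen after seeing the data, the log2 ratio was -4.71 for the name of contig01426, 1.69 for contig01427 and -1.05 for contig10418, all reversed, -2.96 for contig05857 and 1.64 for contig03176. The flavonol synthase pair was then at 0.73 and the 5 contigs summed at -0.24. Both changed sign, though the counting interval of the pair as first joined includes an even share. Taken singly, contig01426 was at 3.54 and contig01427 at -1.96, against -0.20 for the pair. Contigs at least 2-fold apart numbered 1333, against 5146 with a minimum of 3 reads, 399 with 50 reads, 429 at 4-fold and 368 with intervals wholly past 2-fold, and opposite pairs 112, against 1036, 18, 20 and 21. Of the contigs apart, 58.7% were higher in bud, against 37.8% with reads in contigs as totals. A minimum of 50 reads left 3 of the 5 contigs. At 4-fold, 2 of the 5 contigs were higher and 1 lower in bud, against 5.35% and 5.52% of the 3947 contigs. Because the difference chose the 5, nothing is read from this. Depth limits the ratios of contig01426 and contig10418, with 0 and 1 reads in wt.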

Other observations

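Consecutive contigs with a shared annotation were looked at in the study's list after the flavonol synthase values had been seen. Apart from that pair there were 5, not counting proteins without a name, and in 4 of them one contig was at least 2-fold higher and the other at least 2-fold lower in bud. The chloroplastic fructose-bisphosphate aldolase contigs, enzymes of the Calvin cycle, had 53 bud reads and 1 wt read (contig01255) and 0 and 21 (contig01256). The 60S ribosomal protein L29 contigs had 164 and 38 reads (contig01315) and 0 and 37 (contig01316), the 40S ribosomal protein S15 contigs 250 and 37 (contig01420) and 0 and 29 (contig01421), and the 60S ribosomal protein L21 contigs 77 and 0 (contig01726) and 0 and 31 (contig01727). In each of these 4 pairs the sum was higher in bud, with ratios from 1.78 to 3.08, whereas the sum of the flavonol synthases was 0.87. In the GDSL esterase lipase pair, contig00146 had 122 bud reads and 176 wt reads, and contig00147 had 421 and 224, each under 2-fold. The list was chosen for differences between these libraries, so that the counts say nothing of how often contigs with a shared annotation split in the whole table, and its names rest on contig numbers as for the flavonoid contigs.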
